A study of Mus musculus with 40 samples.

Results

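The cytochrome P450 genes of brown adipose tissue (BAT) are described here across 40 libraries from mouse interscapular fat. All rows were taken whose symbol reads Cyp, a number, a letter and a number, together with Cyp51, which gave 93 of the 20295 genes in the table. A further 5 symbols that carry an extra letter, such as Cyp4a12a, fall outside this wording and were left out. Each of 8 groups held 5 male mice, all housed at 29 °C. The first cohort consisted of C-3BO mice and their control littermates at 13 to 19 weeks of age, on chow or on 7 days of high-fat diet (HFD, 60 kcal% fat). C-3BO mice carry a Gpr3 transgene, a constitutively active Gs-coupled receptor, in the Rosa26 locus behind a floxed stop cassette that Ucp1-Cre removes, so that the transgene is switched on in cells that have expressed Ucp1. Their controls carried either the transgene without Cre or Cre without the transgene. The second cohort were mice of 15 weeks that the paper lists as wildtype. They received saline (10 µL/g) or the selective β3-adrenergic agonist labelled CL (1 mg/kg) once a day for 9 days. They were on chow, or on 7 days of HFD that began after 2 days of injection. These mice were littermates without overexpression from a line with a tamoxifen-inducible form of Cre. The paper describes the controls of that line as carrying either the transgene without Cre or Cre without the transgene. The questions were what each way of activating BAT does to its transcripts on each diet, and what the diet does in control and in C-3BO mice.

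P450 enzymes hold a haem group and use oxygen and electrons from NADPH to oxidise lipophilic substrates. Those of the endoplasmic reticulum receive their electrons from the reductase encoded by Por, and those of mitochondria from ferredoxin. Families 1 to 3 are best known for the oxidation of drugs and toxins in the liver, family 4 for the hydroxylation of fatty acids and eicosanoids, and the remaining families for single steps in the making or breakdown of sterols, bile acids, steroid hormones and vitamins A and D. Liver expresses many P450 genes at high level, so that a small admixture of liver transcripts can bring P450 counts into a library of another tissue.

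Libraries held 849126 to 15260516 counts. Levels are given as CPM, read counts divided by the library total and its TMM scaling factor, and 3 counts were taken as the floor that a library can show, which was 0.206 to 3.01 CPM. The brown adipocyte marker Ucp1 was between 1116 and 15800 CPM in every library. In chow CL it was 6761, 7660, 5943 and 8986 CPM in replicates 1 to 4 but 1644 CPM in replicate 5. That value lies within the 1267 to 1865 CPM of chow saline, and the library was kept in all chow CL results. Gpr3 was 266 to 918 CPM in the 10 C-3BO libraries and at most 9.15 CPM in the other 30. That highest value was in chow CL replicate 3, and the next highest was 1.18 CPM in HFD CL replicate 1. Chow CL replicate 3 was also kept, and the source of its Gpr3 counts was not tested. In 12 libraries, however, the liver transcript Alb was between 62.2 and 294 CPM, against 0 to 1.62 CPM in the other 28. These were all 5 HFD saline, all 5 HFD CL, and replicates 4 and 5 of HFD C-3BO. The epididymal transcript Lcn8 was 6.02 to 38.9 CPM in these 12 libraries and at 0 in the other 28. The 12 libraries were also smaller, with 849126 to 7284129 counts against 7349348 to 15260516. In the injected mice, diet and this set of libraries cannot be told apart, and no test of HFD against chow was made there. The CL effects on the 2 diets were compared, and the same limit holds for that contrast. The main P450 and gene list results on HFD C-3BO are also given without its replicates 4 and 5. In bulk tissue, a change in the number of cells of one type and a change of RNA within those cells cannot be told apart.

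The 93 genes were sorted by where they were counted. A gene was taken as a P450 of brown fat if it reached 1 CPM in at least 5 of the 28 libraries with Alb at or under 10 CPM, which held for 23 genes. It was taken as present only with Alb if it passed 3 counts in some of the 12 libraries with Alb and in none of the other 28, which held for 19 genes. A further 18 genes passed 3 counts in some of the 28 libraries without reaching the level of the brown fat group, and 33 genes passed 3 counts nowhere, among them 8 without a single count. By role, the brown fat group took 6 of 17 genes of family 4 and 4 of 7 genes of sterol and bile acid metabolism. It took 2 of 6 genes of vitamins A and D, where Cyp2r1 was counted, and 10 of the 56 other genes of families 1 to 3. The group also held Cyp20a1, which has no settled substrate. None of the 6 genes of steroid hormone synthesis belonged to it. Cyp11a1, which makes pregnenolone from cholesterol, reached 5 counts in a library at most, and Cyp17a1 reached 4 in the 28 libraries, while Cyp11b1, Cyp11b2, Cyp19a1 and Cyp21a1 stayed at or under the floor in all 40.

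**Figure D1:**
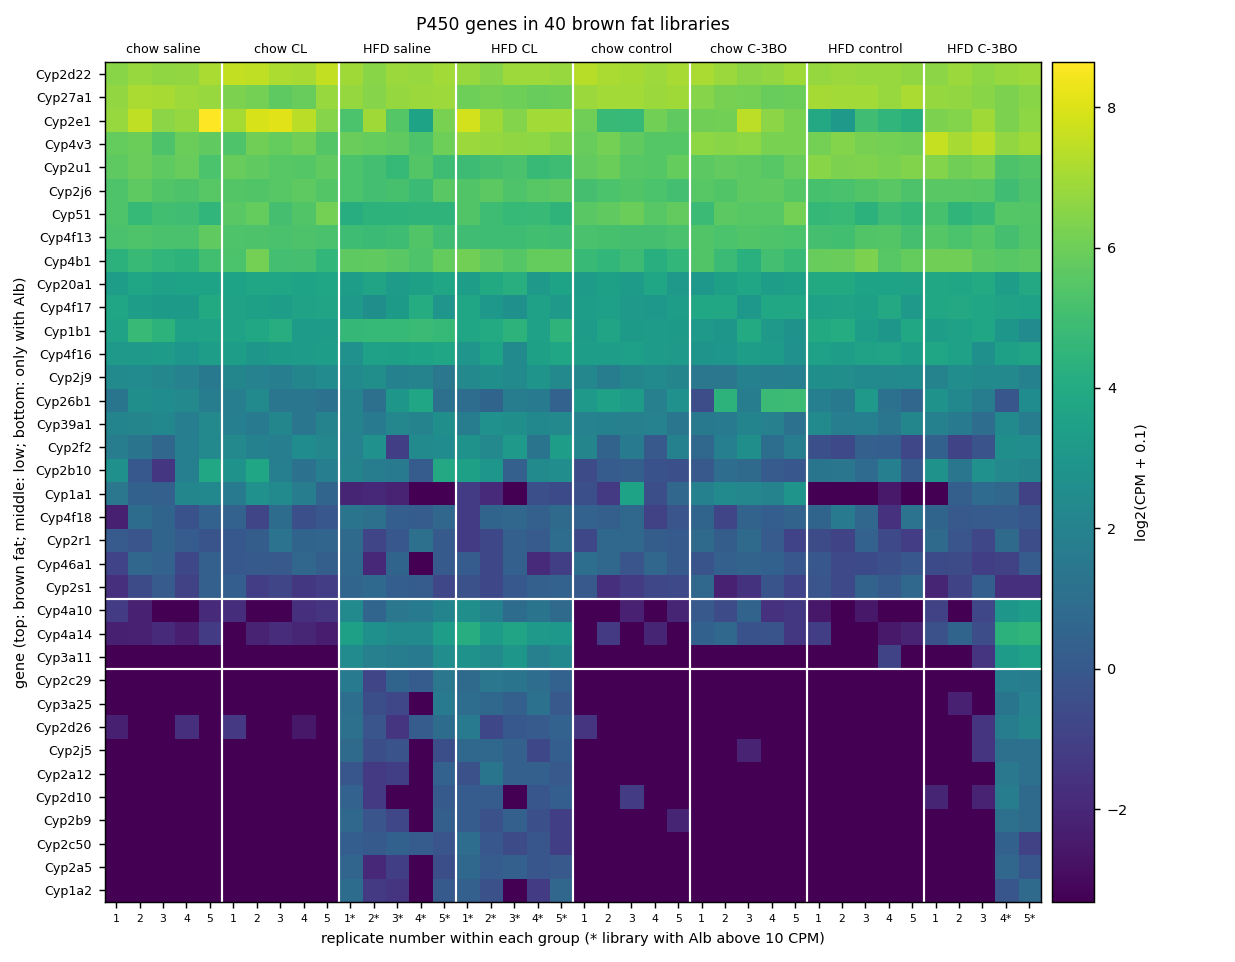
Level of 36 P450 genes in each of the 40 libraries, as log2(CPM + 0.1), with 1 column a library and an asterisk on the 12 libraries with Alb above 10 CPM. The 23 brown fat genes at the top have counts in every group, with Cyp1a1 at a single count in HFD control, whereas the 10 genes at the bottom pass 3 counts only in marked columns and show scattered counts under that floor in some of the others.

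Per kilobase of exon, the brown fat P450s ran from a median of 58.2 CPM per kb for Cyp27a1 over the 28 libraries to 0.194 for Cyp2s1. After Cyp27a1 came Cyp2e1 with 46.8, Cyp2d22 with 41.4, Cyp2u1 with 23.5, Cyp4v3 with 22.6, Cyp4f13 with 22.1, Cyp4b1 with 17.4, Cyp2j6 with 11.9, Cyp51 with 8.88, Cyp20a1 with 8.15 and Cyp4f17 with 6.76 CPM per kb. The other 12 genes lay under 5 CPM per kb. The ranges of neighbours in this order, such as Cyp2u1, Cyp4v3 and Cyp4f13, overlapped over the libraries. The 4 genes with the most reads, Cyp2d22, Cyp27a1, Cyp2e1 and Cyp4v3, took 50.3 to 71.4% of the summed CPM of the 23 genes in each of the 28 libraries. Summed over the 23 genes, brown fat P450s made up 584 to 981 CPM in the 28 libraries without Alb and 550 to 800 CPM in the 12 libraries with it, and the ranges overlapped.

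Among the P450s present only with Alb were many that are best known from liver. Of the 19 genes, 15 belonged to family 2, of which 7 were Cyp2c and 4 Cyp2a genes, and the rest were Cyp1a2, Cyp3a25, Cyp4f15 and Cyp7a1, the rate-limiting enzyme of bile acid synthesis. They lie mainly in the large P450 clusters of chromosome 19 with 7 genes and chromosome 7 with 5 genes. In 11 of the 19 there was no count at all in any of the 28 libraries. The 10 with the highest median over the 12 libraries were Cyp2c29 with 2.07 CPM, Cyp3a25 with 1.69, Cyp2d26 with 1.14, Cyp2j5 with 1.13, Cyp2a12 with 1.03, Cyp2d10 with 0.981, Cyp2b9 with 0.898, Cyp2c50 with 0.897, Cyp2a5 with 0.867 and Cyp1a2 with 0.747 CPM. Several of these values are close to the floor of 3 counts. Cyp2c29 was at 0 in each of the 28 libraries, which allows up to 0.206 to 0.452 CPM in a library, and it was 0.472 to 3.46 CPM in the 12. The first 3 replicates of HFD C-3BO had no count of it, and replicates 4 and 5 stood at the top of all libraries.

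Together the 19 genes summed to 3.01 to 29.1 CPM in the 12 libraries and to 0 to 0.856 CPM in the other 28. Relative to Alb it was 9.56 to 13.4% of Alb in 11 of the 12 libraries. The exception was HFD saline replicate 4, the smallest library, with 4.84% from 3 counts. The ratios of saline, CL and C-3BO libraries overlapped. Of the 20 liver markers listed, 10 had no count in chow saline, 7 in chow CL, 5 in chow C-3BO, 4 in chow control and 1 in HFD control. In HFD saline, HFD CL and HFD C-3BO 0 were without counts. The summed CPM of the list did not separate these groups. It was 961 to 2257 in chow saline, 922 to 1619 in HFD control, 1567 to 2124 in HFD saline and 671 to 1111 in HFD C-3BO. This grouping is a description, since the libraries were split by Alb.

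**Figure D2:**
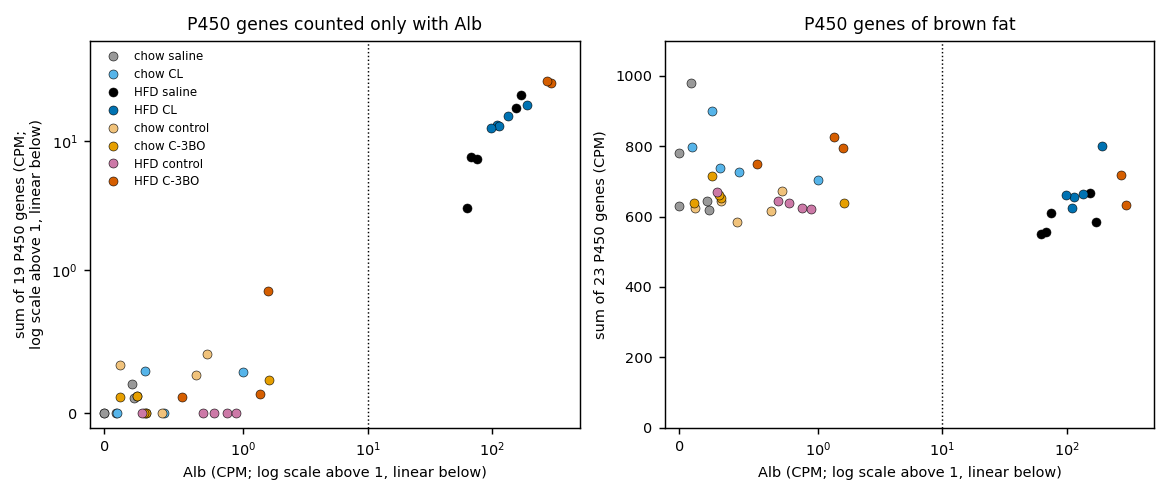
Summed CPM of the 19 P450 genes present only with Alb (left, log scale above 1 and linear below) and of the 23 brown fat P450 genes (right, linear scale) against Alb in CPM, with 1 point a library, colours for the 8 groups and a dotted line at 10 CPM. The left sum is at most 0.856 CPM left of the line and 3.01 CPM or more right of it, whereas the right sum lies between 550 and 981 CPM on both sides.

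Close relatives limit what single counts of these genes can say. In the mouse transcripts of GENCODE vM1, 91 of the 93 genes were found. For each, the share of its 50-base words was computed that also occur in the gene sharing the most of them. That partner could be any gene, P450 or not. This share was above 5% for 15 of the 19 genes present only with Alb but for 3 of the 23 brown fat genes. Cyp2a4 shared 36.5% of its words with Cyp2a5, Cyp2a12 shared 27.9% with Cyp2a22 and Cyp2c50 shared 20.6% with Cyp2c37, so that reads of these pairs may have been split or lost. Cyp2b10 shared 6.55% with Cyp2b13. Among the genes of family 4, Cyp4a10 shared 23.9% of its words with Cyp4a32, Cyp4f16 shared 23.3% with Gm9705, and Cyp4v3 shared 9.1% with Klkb1, which lies beside it. In the 250 bases before the annotated start, 5 motifs were searched on either strand. The letters TATAAA were found in 10 of 19 genes present only with Alb, in 2 of 23 brown fat genes and in 11.8% of all 20292 genes with a sequence. Close relatives such as Cyp2a4 and Cyp2a5 count singly among the 10. The letters GCGTG were found in 1 of 19, 8 of 23 and 35.5%, and AGGTCA in 4 of 19, 2 of 23 and 12%. Cyp1a1 is among the 8 genes with GCGTG and the 2 with AGGTCA. Its window was taken before its annotated start, and use of that start in BAT was not tested. TCACCNCA and TGACGTCA were found in 0 of the 19.

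Of the 93 genes, 33 had enough counts to be tested in edgeR's quasi-likelihood model, namely all 23 brown fat genes, 7 of the genes present only with Alb, and Cyp4a10, Cyp4a14 and Cyp3a11. The adjustment of p-values ran over all 13277 genes with enough counts. A gene was called higher or lower if its adjusted p was under 0.05, and induced or reduced if its log2 fold change also passed 1 in size.

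After CL on chow, 3 of 33 P450 genes were higher, against 9.16% of all tested genes, and 1 was lower, against 6.13%. By edgeR and by DESeq2, 0 were induced or reduced, at backgrounds of 1.12% and 1.45%, and 4 had an unadjusted p under 0.05 by either tool. After CL on HFD, 2 were higher, against 12.7%, and 1 was lower, against 10.8%. C-3BO on chow had 4 higher genes, against 15.8%, and 1 lower gene, against 15.9%, and 2 were induced, against 2.37%, and 0 reduced, against 4.81%. C-3BO on HFD had 14 higher genes, against 19.3%, and 2 lower genes, against 15.5%, and 13 were induced, against 4.34%, and 0 reduced, against 3.1%. The 7 genes present only with Alb and the 3 low genes make up 10 of these 13. Without replicates 4 and 5, 37 P450 genes were tested and 4 were higher, against 14.6%, namely Cyp4v3, Cyp2e1, Cyp1a1 and Cyp4a14. These 4 were also induced, against 3.28%, and 0 were lower, against 10.4%. HFD in control mice had 4 higher genes, against 15.4%, and 5 lower genes, against 17.5%. HFD in C-3BO mice had 14 higher genes, against 13.5%, and 2 lower genes, against 12.2%. Without replicates 4 and 5 it had 5 higher genes, against 8.47%, and 3 lower genes, against 8.44%, all in the brown fat group, and 1 was induced, against 1.31%. Of the 23 brown fat P450s, 2 to 5 were higher and 1 to 5 lower in each comparison, and their median log2 fold change lay between 0.02 and 0.14, against -0.03 to 0.03 over all tested genes.

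**Figure D3:**
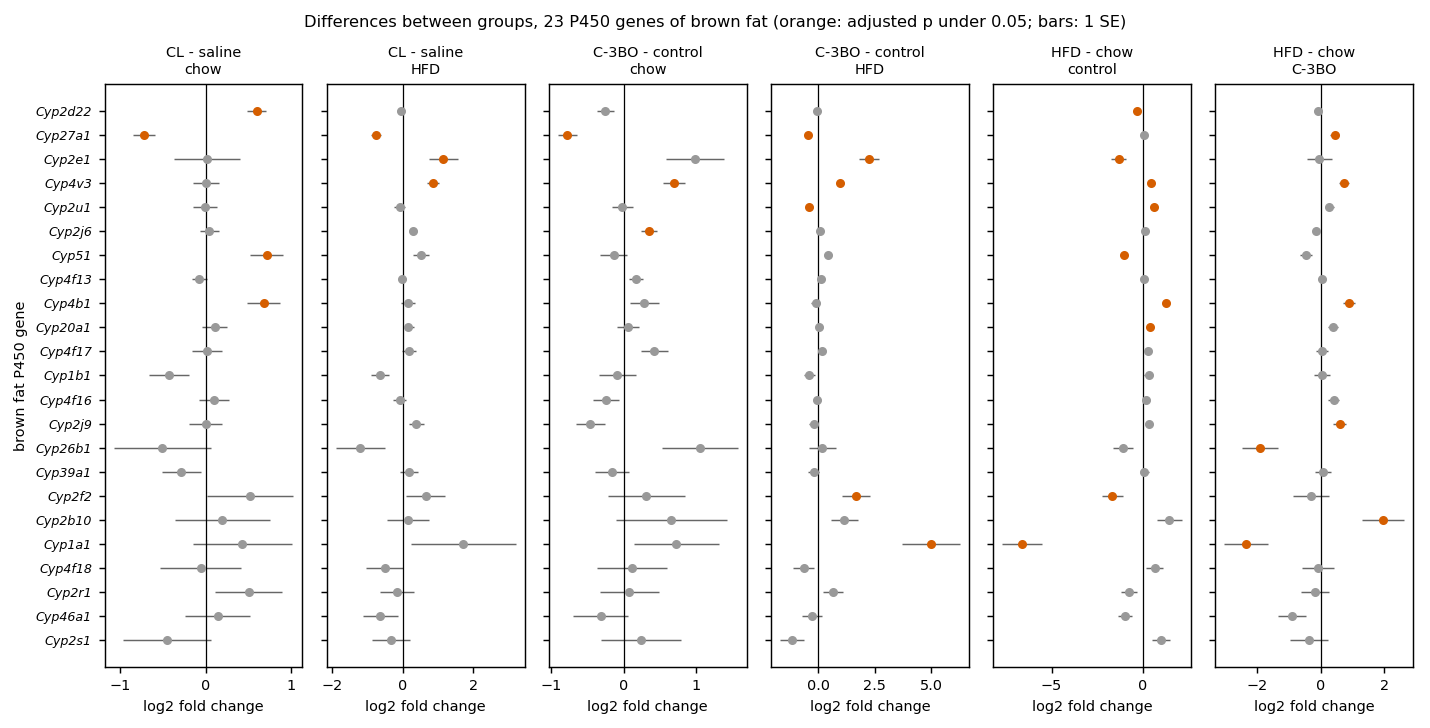
Log2 fold change of the 23 brown fat P450 genes in the 6 comparisons, ordered by median CPM, with bars of 1 standard error and adjusted p under 0.05 in orange. The horizontal scale differs between panels. Cyp27a1 lies left of 0 in all 4 comparisons of CL or C-3BO with its control, and Cyp1a1 lies at -6.62 in HFD against chow in control mice.

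Among the sterol enzymes, Cyp27a1 (NM_024264, mm9 chr1:74760148-74784464), the mitochondrial hydroxylase that makes oxysterols and starts the alternative pathway of bile acid synthesis, was lower in BAT activated in either way. On chow it was 104, 140, 135, 120 and 109 CPM after saline and 78.8, 70, 51.2, 57.5 and 111 CPM after CL. Here 4 of 5 CL libraries lay under all saline libraries, and the log2 fold change was -0.72 ± 0.13 (SE, adjusted p = 0.000146, edgeR). The exception was replicate 5 with 111 CPM, the chow CL library whose Ucp1 lay within the saline range. On HFD it was 109, 89.1, 107, 113 and 119 CPM after saline and 62.9, 69.6, 64, 58.4 and 61.9 CPM after CL, without overlap, and fell by 0.76 ± 0.13 on the log2 scale (adjusted p = 6.14e-05). All 10 libraries of that comparison hold Alb.

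In C-3BO mice on chow Cyp27a1 was 88.2, 72, 70.5, 57.9 and 61.9 CPM against 116, 126, 125, 113 and 121 CPM in controls. All C-3BO libraries lay under all controls, with a log2 fold change of -0.78 ± 0.13 (adjusted p = 1.81e-05). On HFD it was 107, 102, 90.8, 78.6 and 91.3 CPM against 131, 128, 125, 111 and 139 CPM, again without overlap, at -0.43 ± 0.13 (adjusted p = 0.00913). Without replicates 4 and 5 of HFD C-3BO the value was -0.34 and no longer passed. Between diets, C-3BO mice were 0.43 ± 0.13 higher on HFD (adjusted p = 0.0143), or 0.52 without replicates 4 and 5 (adjusted p = 0.0135), while the value in control mice was not called.

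The second sterol enzyme with many reads was Cyp51 (NM_020010), the lanosterol demethylase of cholesterol synthesis. Its gene lies on the minus strand of mm9 chromosome 5 from 4080674 to 4104697. On chow it was 41.2, 26.1, 32.3, 30.8 and 23 CPM after saline and 47.7, 56.8, 34.5, 42.2 and 71 CPM after CL. The CL group was higher by 0.72 ± 0.19 on the log2 scale (adjusted p = 0.00882), and 4 of 5 CL libraries lay above all saline libraries. In control mice it was 47.8, 52.8, 61.7, 46.3 and 55 CPM on chow and 24.9, 27.8, 20.5, 29.5 and 24.9 CPM on HFD. The groups did not overlap, and the fall was called reduced at -1.04 ± 0.19 (adjusted p = 5.69e-05), against 4.87% of all tested genes. C-3BO and control mice overlapped on both diets and no difference was called. In C-3BO mice the diets differed by -0.47, which did not pass (adjusted p = 0.0772), and by -0.73 without replicates 4 and 5 (adjusted p = 0.0191).

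The 250 bases before the Cyp51 start are shown because they hold the core letters of a sterol regulatory element, TCACCNCA, in capitals, which were found on either strand in 1 of the 23 brown fat P450 genes and in 3.33% of all genes. The match lies 88 to 81 bases before the start, and the letters GCGTG lie 75 to 71 bases before it.
Cyp51 (chr5:4104698-4104947, minus strand): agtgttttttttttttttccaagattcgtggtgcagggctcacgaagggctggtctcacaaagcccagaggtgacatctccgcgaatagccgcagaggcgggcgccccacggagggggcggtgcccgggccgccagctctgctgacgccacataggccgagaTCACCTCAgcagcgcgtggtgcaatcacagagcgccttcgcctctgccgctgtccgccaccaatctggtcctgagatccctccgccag

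The corresponding stretch of Cyp27a1 is shown beside it, as this gene moved the other way after CL on chow. It holds none of the 5 motifs searched on either strand. These were the core letters GCGTG of xenobiotic response elements, which are found in 8 of 23 brown fat P450 genes and 35.5% of all genes, and the nuclear receptor hexamer AGGTCA. The others were the sterol regulatory element above, the cAMP response element TGACGTCA, found in 0 of 23 and in 2.14% of all genes, and the TATA box. No motif contains another. A match in these letters is a description of the sequence and not a bound site.
Cyp27a1 (chr1:74759898-74760147, plus strand): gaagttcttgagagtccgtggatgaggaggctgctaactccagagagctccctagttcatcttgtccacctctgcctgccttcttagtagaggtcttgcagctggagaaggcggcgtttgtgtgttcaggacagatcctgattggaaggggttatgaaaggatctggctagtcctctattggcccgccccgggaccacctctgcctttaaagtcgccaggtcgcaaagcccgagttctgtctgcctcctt

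The other sterol enzymes of the brown fat group, Cyp39a1, an oxysterol hydroxylase, and Cyp46a1, the cholesterol hydroxylase best known from neurons, had group means of 3.14 to 5.06 CPM and 0.581 to 1.32 CPM. Neither was called in any comparison. Cyp46a1 was at -0.95 in HFD against chow in control mice (adjusted p = 0.052), which did not pass. Cyp7b1 and Cyp8b1 stayed low, with at most 9 and 11 counts in a library without Alb.

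In family 4, Cyp4v3 (NM_133969, mm9 chr8:46391156-46418550), a fatty acid hydroxylase whose human counterpart is mutated in a crystalline retinal dystrophy, was higher in activated BAT in 3 of 4 comparisons. In C-3BO mice on chow it was 97.5, 92.6, 96.1, 75.4 and 75.3 CPM, and in controls 57.6, 70.6, 52.9, 45.4 and 45 CPM. The groups did not overlap and differed by 0.69 ± 0.15 on the log2 scale (adjusted p = 0.000657). On HFD it was 191, 136, 170, 102 and 122 CPM in C-3BO mice against 69.6, 85.2, 72.5, 70.7 and 65.8 CPM in controls, a difference of 0.99 ± 0.15 (adjusted p = 2.91e-06). Replicates 4 and 5 were the lowest of the C-3BO group and still above all controls, and without them the difference was 1.19.

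After CL on HFD Cyp4v3 was 114, 108, 102, 97.9 and 81.9 CPM, and after saline 60.2, 55.7, 52.3, 40.1 and 64.1 CPM. These did not overlap either, with a difference of 0.86 ± 0.16 (adjusted p = 9.63e-05). On chow, in contrast, it was 54.3 ± 12.1 CPM after CL and 54.2 ± 9.06 CPM after saline (SD, n = 5 each). The difference between the CL effects on HFD and chow was 0.85 ± 0.22 on the log2 scale and did not pass in edgeR (adjusted p = 0.113), although DESeq2 called it. Diet and library set cannot be told apart in this contrast. On HFD Cyp4v3 was higher than on chow in C-3BO mice by 0.73 ± 0.15 (adjusted p = 0.000463), or 0.92 without replicates 4 and 5, and in control mice by 0.42 ± 0.15 (adjusted p = 0.0288). The value in control mice lost its call without chow control replicate 3 (0.41), 4 (0.35) or 5 (0.36) or HFD control replicate 2 (0.36).

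Since it moved with both forms of activation, the sequence before the Cyp4v3 start is printed. It also holds none of the motifs searched.
Cyp4v3 (chr8:46418551-46418800, minus strand): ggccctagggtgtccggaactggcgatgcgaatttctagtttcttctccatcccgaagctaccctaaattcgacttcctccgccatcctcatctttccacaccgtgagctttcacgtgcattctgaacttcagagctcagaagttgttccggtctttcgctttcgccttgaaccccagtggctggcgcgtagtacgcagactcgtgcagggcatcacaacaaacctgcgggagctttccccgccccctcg

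Cyp4b1, which oxidises fatty acids and foreign compounds and is best known from lung, followed the diet. In control mice it was 27, 24.1, 29.7, 18.2 and 24.2 CPM on chow and 58.8, 60.6, 76.9, 46.8 and 55.4 CPM on HFD. The groups did not overlap, and Cyp4b1 was induced at 1.28 ± 0.20 (adjusted p = 3.92e-06), against 1.24% of all tested genes. In C-3BO mice it was 42.2, 28.4, 19.2, 33.8 and 26.3 CPM on chow and 65.1, 66.5, 49.5, 45.6 and 49.6 CPM on HFD, with a difference of 0.89 ± 0.20 (adjusted p = 0.000977). It was 1.01 without replicates 4 and 5. CL on chow gave 0.68 ± 0.20 (adjusted p = 0.0158), which rests in part on CL replicate 2 with 71.1 CPM, since the other 4 CL libraries lay between 24.4 and 37.9 CPM. Without that library the value was 0.38, and without chow saline replicate 1 it was 0.61, and neither passed. It also did not pass with library totals alone (0.53) or with the libraries of the comparison alone (0.67).

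**Figure D4:**
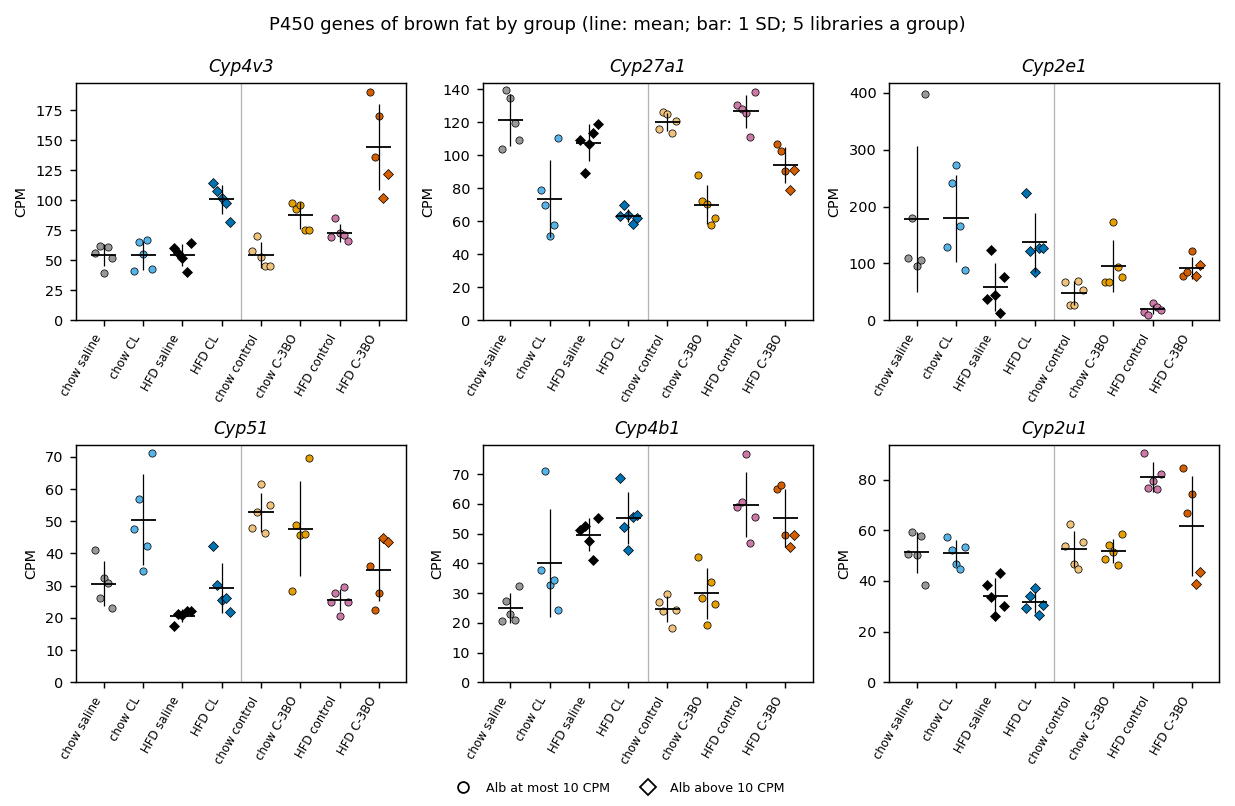
CPM of 6 brown fat P450 genes in each library by group, with the mean as a line, 1 SD as a bar and diamonds for libraries with Alb above 10 CPM. Cyp27a1 is lower and Cyp4v3 higher in both C-3BO groups than in their controls, Cyp4b1 is 46.8 CPM or more in every HFD control library and at most 29.7 CPM in every chow control library, and the diamonds of Cyp2u1 lie at 43.4 CPM or less.

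Cyp4a10 and Cyp4a14, fatty acid hydroxylases that respond to PPARα in liver, have starts 22.15 kb apart on chromosome 4 and were near the floor in most BAT libraries. On chow, where no library held Alb above 10 CPM, Cyp4a14 was 1.21, 1.5, 0.717, 0.775 and 0.286 CPM in C-3BO mice, and 0, 0.304, 0, 0.139 and 0 CPM in controls. It was induced at 3.08 ± 1.08 (adjusted p = 0.0258), and 4 of 5 C-3BO libraries lay above all controls. This lost its call without chow control replicate 1 (2.75) or 3 (2.84) or chow C-3BO replicate 2 (2.80). Cyp4a10 was 0.904, 0.579, 1.31, 0.221 and 0.286 CPM in C-3BO mice against 0, 0, 0.112, 0 and 0.133 CPM, without overlap (adjusted p = 0.0207). The ratio of the pooled counts, 26 against 2, was 17.3 with an exact 95% interval of 4.33 to 150.5 that covers counting error only. It lost its call without chow control replicate 4 or chow C-3BO replicate 3, at fitted values of 3.33 and 3.27. Both genes were called induced here against 2.37% of all tested genes.

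On HFD the C-3BO libraries fell into separate levels. Replicates 1 to 3 had 0.68, 1.35 and 0.612 CPM of Cyp4a14, against 0.36, 0, 0, 0.0739 and 0.119 CPM in controls, and replicates 4 and 5 had 20.2 and 22.5 CPM. Without replicates 4 and 5 Cyp4a14 was still higher, by 2.84 on the log2 scale, with an adjusted p of 0.00189, the highest of all alternatives, which reached down to 3.34e-10. Cyp4a10 was 0.408, 0 and 0.489 CPM in the first 3 replicates, or 7 counts, against 2 counts in the 5 control libraries, a ratio of 8.84 with an exact 95% interval of 1.68 to 87.25, and was not called. In the 10 injected HFD libraries, which all hold Alb, Cyp4a14 was 4.97 to 17.3 CPM and Cyp4a10 was 1.42 to 6.05 CPM, saline and CL alike. Relative to Alb, Cyp4a14 stood at a median of 7.88% (6.55 to 11.4%) and Cyp4a10 at a median of 2.76% over the 12 libraries. HFD against chow in C-3BO mice was called for both genes with all libraries, at 3.24 and 2.40, and was -0.02 and -1.14 without replicates 4 and 5. Cyp4a10 also lost that call without replicate 4 (1.86) or 5 (1.56) alone and with a replicate block (2.01, adjusted p = 0.0564). Chow CL libraries were at most 0.185 CPM for Cyp4a14 and chow saline libraries at most 0.34 CPM.

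The stretches before both starts are shown because these neighbours moved together. The hexamer AGGTCA, which many nuclear receptors recognise, is in capitals. It lies 93 to 88 bases before the Cyp4a14 start, while the window of Cyp4a10 holds none. On either strand it was found in 12% of all genes and in 2 of 23 brown fat P450 genes.
Cyp4a14 (chr4:115168747-115168996, minus strand): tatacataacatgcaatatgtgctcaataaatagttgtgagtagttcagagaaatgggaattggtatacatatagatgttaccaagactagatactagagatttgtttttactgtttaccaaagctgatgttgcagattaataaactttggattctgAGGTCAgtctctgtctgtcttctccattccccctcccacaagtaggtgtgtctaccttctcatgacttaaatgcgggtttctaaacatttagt
Cyp4a10 (chr4:115190642-115190891, plus strand): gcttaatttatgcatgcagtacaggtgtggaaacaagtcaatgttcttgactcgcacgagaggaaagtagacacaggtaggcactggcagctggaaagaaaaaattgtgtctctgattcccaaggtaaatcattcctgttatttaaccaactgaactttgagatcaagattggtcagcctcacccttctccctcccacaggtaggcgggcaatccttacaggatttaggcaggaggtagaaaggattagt

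The Cyp4f genes of brown fat varied little between groups. Cyp4f13 had group means of 31.2 to 40.6 CPM, Cyp4f17 of 9.59 to 13.1 CPM, Cyp4f16 of 8.2 to 11.2 CPM and Cyp4f18, a leukotriene hydroxylase of neutrophils, of 1 to 1.63 CPM. None of them passed in any of the 9 comparisons. The value nearest to the threshold was that of Cyp4f17 in C-3BO mice on chow, at 0.42 with an adjusted p of 0.0729.

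In families 1 to 3, Cyp2e1 (NM_021282, mm9 chr7:147949731-147960876), which oxidises ethanol, acetone and other small molecules, spread from 8.89 to 399 CPM over the 28 libraries without Alb. In control mice it was 67, 26.5, 26, 68.4 and 52.4 CPM on chow and 14.9, 8.89, 31.1, 23.1 and 18.1 CPM on HFD. The groups overlapped in 1 HFD library, and the fall was -1.32 ± 0.41 (adjusted p = 0.0125). C-3BO mice on HFD had 77.7, 85, 123, 77.8 and 96.9 CPM, all above the controls. Cyp2e1 was induced there at 2.25 ± 0.42 (adjusted p = 6.31e-05), with 2.30 without replicates 4 and 5. On chow C-3BO mice had 66.5, 67.6, 174, 93.8 and 76 CPM, at a log2 value of 0.99 that did not pass (adjusted p = 0.0556). The difference between the C-3BO effects on the 2 diets, 1.26 ± 0.57, did not pass either (adjusted p = 0.266).

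After CL on HFD Cyp2e1 was 225, 122, 84.9, 127 and 128 CPM and after saline 37.6, 123, 45.2, 12 and 75.3 CPM. It was called induced at 1.14 ± 0.41 (adjusted p = 0.0373), against 2.06% of all tested genes, but lost the call without HFD saline replicate 1 (1.01), 3 (1.04) or 4 (0.98) or HFD CL replicate 1 (0.89), and with library totals alone (0.99). On chow the saline group spread from 94.9 to 399 CPM, and the group means of 178 after saline and 180 after CL did not differ beyond that spread. Liver is rich in Cyp2e1, and its median was 90.9 CPM in the 12 libraries with Alb and 81.3 CPM in the other 28, with overlap. These sets hold different groups, between which Cyp2e1 itself differed, and a share of its counts from liver was not tested.

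The bases before the Cyp2e1 start are shown with TATAAA in capitals, 44 to 39 bases before the start. It is 1 of 2 brown fat P450 genes with these letters.
Cyp2e1 (chr7:147949481-147949730, plus strand): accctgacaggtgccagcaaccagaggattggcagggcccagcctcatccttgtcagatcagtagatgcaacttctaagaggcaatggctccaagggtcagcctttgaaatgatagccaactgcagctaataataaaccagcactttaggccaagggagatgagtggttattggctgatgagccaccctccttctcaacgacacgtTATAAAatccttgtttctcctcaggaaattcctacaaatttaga

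Cyp1a1, the textbook target of the aryl hydrocarbon receptor, was low on HFD in every group. On chow it was 0.661, 0.304, 12.3, 0.625 and 1.46 CPM in controls, and on HFD it had a single count, in HFD control replicate 4. All HFD controls thus lay under all chow controls (fitted log2 fold change -6.62, adjusted p = 9.73e-06). The pooled counts were 141 against 1, a ratio of 164.5 with an exact 95% interval of 29.05 to 6542, although most of the chow counts came from replicate 3. C-3BO mice had 3.77, 5.21, 4.54, 3.99 and 7.3 CPM on chow and 0, 1.13, 1.71, 1.43 and 0.41 CPM on HFD, also without overlap, at -2.36 ± 0.68 (adjusted p = 0.00926), or -2.34 without replicates 4 and 5 (adjusted p = 0.0423). Between the genotypes on HFD, 33 counts stood against 1, a ratio of 59.5 with an exact 95% interval of 9.96 to 2420 (adjusted p = 0.00223), and the ratio was 60.6 without replicates 4 and 5. In the injected mice Cyp1a1 was 1.16 to 6.52 CPM in the 10 chow libraries and 0 to 0.66 CPM in the 10 HFD libraries, but diet and library set cannot be told apart there. The gene of the receptor, Ahr, was 0.97 higher on HFD in control mice on the log2 scale, and the activity of the receptor was not tested. Cyp1b1, the other well-known target, had group means of 9.45 to 26.1 CPM and was not called by edgeR in any comparison. It was 25.1 to 28.1 CPM in HFD saline and 11.6 to 22.2 CPM in HFD CL, which did not overlap, at a log2 value of -0.63 that did not pass (adjusted p = 0.0594), although DESeq2 called it.

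**Figure D5:**
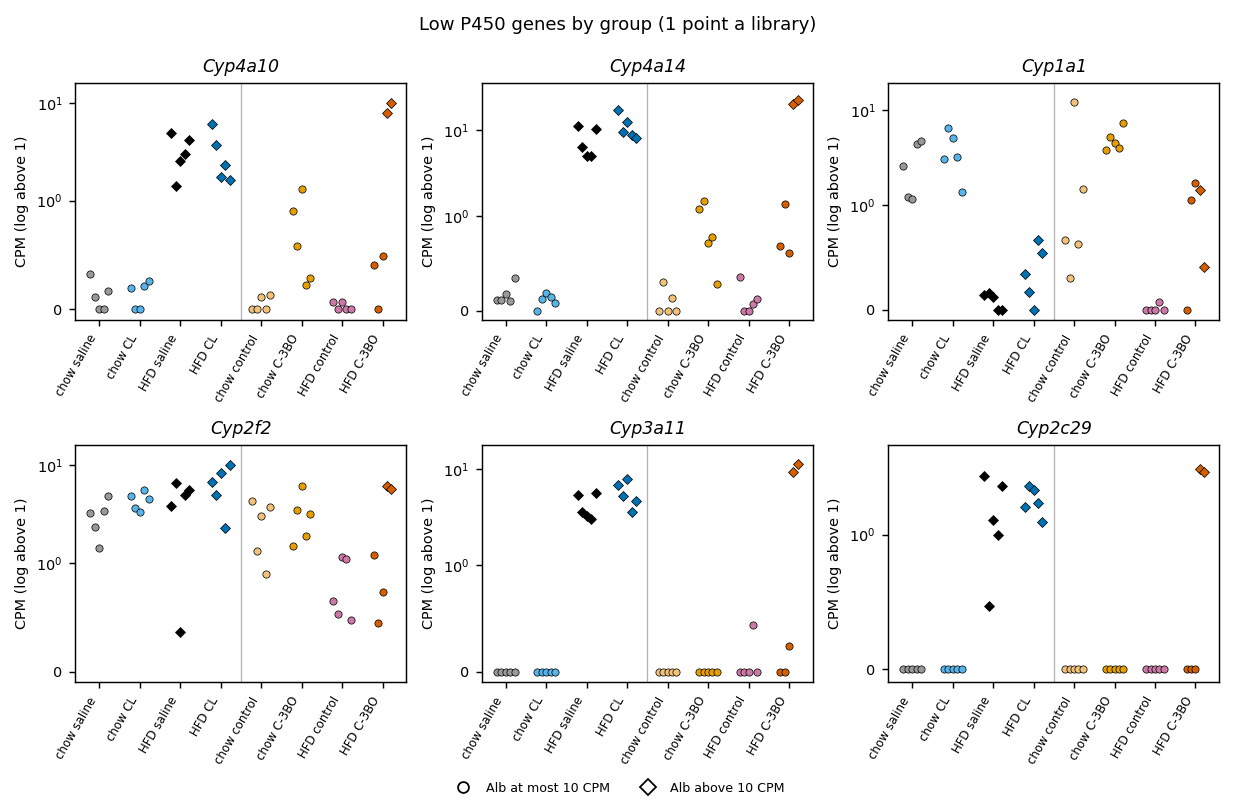
CPM of 6 P450 genes with few counts in each library by group, on a scale that is logarithmic above 1 CPM and linear below, with diamonds for libraries with Alb above 10 CPM. Cyp3a11 and Cyp2c29 are filled by diamonds, Cyp4a10 and Cyp4a14 also rise off 0 in the chow C-3BO circles, and Cyp1a1 is at most 1.71 CPM in every HFD library.

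Cyp2d22 had the highest median CPM of the family over the 28 libraries, 115 CPM. It was 186, 180, 143, 135 and 187 CPM after CL on chow against 90.6, 111, 102, 105 and 140 CPM after saline, higher by 0.60 ± 0.11 (adjusted p = 0.000324), and 4 of 5 CL libraries lay above all saline libraries. On HFD it was 109 ± 11.8 CPM after CL and 113 ± 14.3 CPM after saline (SD, n = 5 each) and was not called. The difference between these CL effects was -0.65 ± 0.16 and did not pass in edgeR (adjusted p = 0.113), while DESeq2 called it. Here too, diet and library set cannot be told apart. In control mice Cyp2d22 was lower on HFD at -0.33 (adjusted p = 0.0249), which did not pass with library totals alone (-0.17, adjusted p = 0.255) or without chow control replicate 1 (-0.25) or HFD control replicate 1 (-0.32) or 5 (-0.31). Its relative Cyp2d26, which shares 5.51% of its 50-base words with it, passed 3 counts only with Alb.

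Cyp2u1, a fatty acid hydroxylase, was 53.8, 62.5, 46.7, 44.7 and 55.5 CPM on chow and 90.5, 76.6, 79.3, 76.3 and 82.1 CPM on HFD in control mice. The groups did not overlap and differed by 0.62 ± 0.14 (adjusted p = 0.000907). It was called lower in C-3BO mice on HFD at -0.38 ± 0.14 (adjusted p = 0.0358). There the first 3 replicates, with 84.7, 66.9 and 74.1 CPM, overlapped with controls, whereas the other 2 had 38.9 and 43.4 CPM. The value was -0.11 without both, -0.27 without replicate 4, -0.29 without replicate 5, -0.35 without HFD control replicate 1 and -0.38 without HFD control replicate 5, and none of these passed, nor did the value from the libraries of the comparison alone (-0.39). Against chow, C-3BO mice on HFD were 0.54 higher without replicates 4 and 5 (adjusted p = 0.00369). The 10 injected HFD libraries were at 26.1 to 43.1 CPM too, whereas the 28 libraries without Alb lay between 38.5 and 90.5 CPM.

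The epoxygenase and hydroxylase genes of the Cyp2j subfamily moved little. Cyp2j6 was 46.6, 41.4, 50.3, 53.4 and 44.2 CPM in C-3BO mice on chow against 34.1, 38.4, 41.7, 38.1 and 33.8 CPM, higher by 0.34 ± 0.11 (adjusted p = 0.0161), but not called with library totals alone (0.15, adjusted p = 0.325) or without chow C-3BO replicate 4 (0.29). Cyp2j9 was 3.11 ± 0.529 CPM on chow and 4.68 ± 0.842 CPM on HFD in C-3BO mice (SD, n = 5 each), higher by 0.60 ± 0.21 (adjusted p = 0.03). This did not pass without chow C-3BO replicate 1 (0.54) or 2 (0.53) or without HFD C-3BO replicate 2 (0.49), 3 (0.55) or 4 (0.56), nor with no filter (0.57) or the libraries of the comparison alone (0.57), and it was 0.67 and still called without replicates 4 and 5 together.

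Cyp2b10, the classical target of the constitutive androstane receptor, was 0.904, 1.85, 1.67, 0.996 and 0.859 CPM on chow and 6.66, 2.48, 6.6, 4.89 and 4.3 CPM on HFD in C-3BO mice. The groups did not overlap, and it was induced at 1.96 ± 0.66 (adjusted p = 0.0265), against 2.42% of all tested genes. It was 2.02 and not called without replicates 4 and 5, and lost its call as well without chow C-3BO replicate 1 (1.87), 4 (1.88) or 5 (1.86) or HFD C-3BO replicate 1 or 3 (1.83 each). In the saline groups it spread from 0.268 to 14.8 CPM. Cyp2f2, best known from the club cells of the lung, was 2.65 ± 1.49 CPM on chow and 0.787 ± 0.327 CPM on HFD in control mice (SD, n = 5 each). It was reduced at -1.68 ± 0.58 (adjusted p = 0.0239), with overlap, and lost the call without chow control replicate 1 (-1.40) or 5 (-1.53) or HFD control replicate 1 (-1.60), 2 (-1.56) or 5 (-1.57). Among the HFD C-3BO libraries the first 3 had 1.22, 0.452 and 0.734 CPM, while the last 2, which hold Alb, had 6.11 and 5.73 CPM. Its call as induced there at 1.67 turned to -0.04 without both, and against chow C-3BO the value without both was -2.02 (adjusted p = 0.0259). It also did not pass without HFD C-3BO replicate 4 (1.15) or 5 (1.22) or HFD control replicate 1 (1.59), 2 (1.56) or 5 (1.57). The median of Cyp2f2 was 5.65 CPM in the 12 libraries with Alb and 2.68 CPM in the other 28, with overlap. These sets hold different groups, and a share of its counts from liver was not tested. Cyp2s1, an enzyme of epithelia, had group means of 0.419 to 1.1 CPM and was not called in any comparison.

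The remaining calls of these families came from libraries with Alb. In C-3BO mice on HFD, Cyp2c29, Cyp3a25, Cyp2d26, Cyp2j5, Cyp2a12, Cyp2b9, Cyp2c50 and Cyp3a11 were called induced. Controls had no count of the first 7, and against the floor over the group the differences of Cyp2d26, Cyp2c29 and Cyp3a25 were at least 6.15-fold, 5.31-fold and 5.08-fold. Replicates 1 to 3 of HFD C-3BO had no count of Cyp2c29, Cyp2a12, Cyp2b9 and Cyp2c50. Of these 8 genes, 0 passed by edgeR without replicates 4 and 5, nor did Cyp2c50 without replicate 4 alone (2.58), and in HFD against chow in C-3BO mice Cyp3a25 lost its call without replicate 5 (5.20), Cyp2b9 without replicate 4 (4.48), and Cyp2a12 and Cyp2j5 without either of them (4.82 and 5.23, 3.57 and 3.59). Cyp3a11, the main P450 of family 3 in mouse liver, was at 0 in every chow library of both cohorts and 3.01 to 11.3 CPM in the 12 libraries with Alb. These genes were grouped by the same libraries, so their calls are no separate result.

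Of the enzymes of vitamins A and D, Cyp26b1, which clears retinoic acid, was 0.603, 20.9, 3.22, 28.2 and 29.2 CPM in C-3BO mice on chow and 7.07, 4.63, 3.3, 0.815 and 5.53 CPM on HFD. It was called reduced at -1.93 ± 0.56 (adjusted p = 0.00986), against 3.38% of all tested genes, although 2 chow libraries lay within the HFD range or under it, and it did not pass without replicates 4 and 5 (-1.73) or with the libraries of the comparison alone (-1.95). In control mice the same contrast was -1.07 and did not pass (adjusted p = 0.131). Cyp2r1, the vitamin D hydroxylase, had group means of 0.626 to 1.38 CPM and was not called. Cyp24a1 and Cyp26c1 were at or under the floor throughout. Cyp20a1, without known substrate, was 10.2 ± 1.73 CPM on chow and 13.3 ± 1.75 CPM on HFD in control mice (SD, n = 5 each), higher by 0.38 (adjusted p = 0.043), and not called without chow control replicate 1 (0.35), 3 (0.35) or 5 (0.32) or HFD control replicate 1 (0.33) or 2 (0.32). It also did not pass with RLE factors (0.36, adjusted p = 0.0508), at least 10 counts in every library (0.34, adjusted p = 0.0559) or the libraries of the comparison alone (0.38, adjusted p = 0.0597).

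Whether an effect differed between diets or treatments was tested directly. By edgeR, 0 P450 genes passed for the C-3BO effect on HFD minus chow, at backgrounds of 1.36% higher and 0.731% lower (0.583% and 0.347% without replicates 4 and 5), with 4 genes at an unadjusted p under 0.05, and DESeq2 called Cyp2d26 and Cyp1a1. By edgeR, 0 passed for the CL effect on HFD minus chow, at backgrounds of 0.0151% higher and 0% lower. There 3 genes had an edgeR p under 0.05 before adjustment, and DESeq2 called Cyp2d22 and Cyp4v3. In this contrast diet cannot be told apart from the set of libraries with Alb. When the effect of CL on HFD was subtracted from that of C-3BO, Cyp2d26 at 6.45, Cyp4a10 at 6.29 and Cyp4a14 at 5.57 were higher, against 0.753% of all tested genes, and 0 were lower by edgeR, against 1.05%, with 10 genes at an unadjusted p under 0.05 and 3 called by DESeq2. In that contrast Alb is high in both injected groups but only in replicates 4 and 5 of the other cohort, and the 3 calls cannot be told apart from that split of the libraries. Cyp2d26 had no count in HFD controls, and its value is a fitted one over an empty group. Without those replicates the values were 2.62, 2.76 and 2.31 and 0 of the 3 passed by edgeR, at backgrounds of 0.303% higher and 0.531% lower. Cyp2d26 also lost its call when any of 15 libraries was left out singly, at 5.54 to 6.61. The comparison of C-3BO with control and that of CL with saline share no libraries on a diet, while the diet comparisons share their groups with the genotype comparisons.

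P450s depend on partners for electrons and haem. Of 10 redox partners, Cyb5b, the cytochrome b5 of the outer mitochondrial membrane, was induced in all 4 comparisons of CL or C-3BO with its control, from 1.01 ± 0.15 in C-3BO mice on chow to 1.22 ± 0.15 after CL on HFD. It was 1.16 in C-3BO mice on HFD and 1.03 without replicates 4 and 5. In control mice on HFD, 7 of the 10 were lower and 2 higher, against 17.5% and 15.4% of all tested genes, with a list median of -0.43 against 0 over all genes. The reductase Por was higher there by 0.70 and higher in C-3BO mice on chow by 0.80. Of 13 genes of haem synthesis and breakdown, Uros, an enzyme of porphyrin synthesis, was higher in all 4 comparisons and induced at 1.18 ± 0.14 in C-3BO mice on HFD, with 1.18 also without replicates 4 and 5. Blvra, a biliverdin reductase, was reduced at -1.08 ± 0.14 in C-3BO mice on chow, where Alas1, the rate-limiting enzyme, was lower by 0.87.

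Of 20 nuclear receptors and partners, 17 were tested. In control mice on HFD 7 were higher and 0 lower, against 15.4% and 17.5% of all tested genes, among them Ahr and Ppara at 0.75. In C-3BO mice on HFD Ppara was at -0.52, and at -0.32 without replicates 4 and 5, which did not pass. Nr1h4, the bile acid receptor, was called induced after CL on chow at 1.94 ± 0.61 from a mean of 0.214 to 0.884 CPM. That saline mean lies under the floor of 3 counts, which was 0.255 to 0.334 CPM in the chow saline libraries. Hnf4a, the factor that drives many P450 genes in liver, had no count in HFD controls and a mean of 1.27 CPM in HFD C-3BO, and had no call without replicates 4 and 5. Of 14 enzymes that share P450 substrates, 12 were tested. Ephx2, the soluble epoxide hydrolase that acts on the products of epoxygenases, was higher in all 4 comparisons, from 0.83 ± 0.16 after CL on chow to 1.57 ± 0.16 after CL on HFD, with means of 252.8 CPM after saline and 754 CPM after CL on HFD. In C-3BO mice on HFD it was 1.32, and 1.46 without replicates 4 and 5. Aldh1a1, which makes retinoic acid, and Ptgis, the prostacyclin synthase, were reduced on HFD in control mice at -1.53 ± 0.28 and -1.60 ± 0.45, and Ephx3 was induced at 1.54 ± 0.41.

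Markers of other cells moved with some of these contrasts, and their part in the results was not tested. Skeletal muscle transcripts, 10 genes that summed to 722 to 9625 CPM in chow controls and 5.18 to 206 CPM in HFD controls, were lower in 10 of 10 genes on HFD in control mice, against 17.5% of all tested genes, and in C-3BO mice, against 12.2%, with the same count without replicates 4 and 5. After CL on chow 9 of 10 were lower, against 6.13%, at 10.1 to 133 CPM against 10.46 to 2398 CPM after saline. Endothelial markers were higher in 7 of 8 on HFD in control mice, against 15.4%, summing to 862 to 1324 CPM on chow and 1604 to 2167 CPM on HFD. They were lower in 4 of 8 in C-3BO mice on chow, against 15.9%, at 541 to 1060 CPM. On HFD 6 of 8 were lower in C-3BO mice, against 15.5%, at 1291 to 1515 CPM, and 4 of 8 without replicates 4 and 5, against 10.4%.

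Macrophage markers were lower in 4 of 9 after CL on HFD, against 10.8%, at 170 to 506 CPM against 414 to 951 CPM after saline. Fibroblast and mural markers were lower in 3 of 9 there, and in 3 of 9 in C-3BO mice on HFD, against 15.5%, or 2 of 9 without replicates 4 and 5. Liver markers were higher in 16 of 18 tested genes in C-3BO mice on HFD, against 19.3%, and epididymis markers in 3 of 4, and without replicates 4 and 5 these counts were 1 and 0 by edgeR, against 14.6%. The epididymis list summed to 0.952 to 67.2 CPM in HFD C-3BO, to 0.952 to 2.45 CPM in its first 3 replicates and to 0.889 to 2.03 CPM in HFD controls. Steroidogenic cell markers summed to 5.77 to 18.1 CPM over all groups. Brown adipocyte markers were higher in 5 of 12 after CL on chow, against 9.16%, and on HFD, against 12.7%. They were higher in 6 of 12 in C-3BO mice on chow, against 15.8%, and on HFD, against 19.3%, or 5 of 12 on HFD without replicates 4 and 5, against 14.6%.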

How the data were processed

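RNA sequencing of BAT covered 8 groups of 5 mice. Poly(A) libraries were made by the authors with the TruSeq kit, aligned by STAR against mm9, stored as HOMER tag directories and counted over RefSeq exons by iRNA-seq. Raw counts per gene and mouse were deposited, without normalization. Versions, strandedness and filters are not given in the sources used here, so reads of overlapping genes cannot be told apart. P-values measure the spread between mice. From the 20295 genes, filterByExpr of edgeR 4.0.16 (minimum count 10) kept 13277, which were scaled by TMM. The quasi-likelihood fit took all 40 libraries at once and gave each group its own mean, and the Benjamini-Hochberg adjustment ran over every tested gene. A gene was called induced or reduced beyond a log2 change of 1 at an adjusted p under 0.05, whereas interactions needed the p alone. The standard error is the log2 fold change divided by the square root of F. Library totals were 849126 to 15260516, and a count of 3 was taken as the floor. Floors and exact intervals cover counting error only.

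The P450 genes, their classes and all lists were chosen with earlier results of these data known. Named were all brown fat P450s, all P450s called in a comparison, the 10 genes present only with Alb with the highest medians, and up to 4 called genes per partner list with the largest change. A few other genes, such as Por, Alas1, Ahr, Ppara, Cyp11a1, Cyp7b1 and Cyp8b1, were named after their values were seen. Fits were tested on simulated data. No pair of libraries in a group agreed within counting noise (a chi-square per gene of 2.81 or more). Alternatives were DESeq2 1.42.0, library totals alone, RLE factors, no filter, at least 10 counts in every library, the libraries of a comparison alone, a replicate block, each library left out, and replicates 4 and 5 of HFD C-3BO left out. Sequences were read from the mm9 genome at the starts of the count table, with the first base numbered 1, and motifs were searched on both strands in the 250 bases before the start.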

Additional observations from a re-analysis of the deposited data

Results flagged for a closer look

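In 184 checks of 5 libraries each for the brown fat P450 genes, 20 had a library set apart from the other 4, where chance alone sets about 1 in 20 apart. Values on the high side included Cyp2e1 at 399 CPM in chow saline 5 (others 94.9 to 180) and 174 CPM in chow C-3BO 3 (others 66.5 to 93.8), Cyp2b10 at 14.8 CPM in HFD saline 5 (others 1 to 3.99), Cyp1a1 at 12.3 CPM in chow control 3 (others 0.304 to 1.46) and Cyp26b1 at 8.72 CPM in HFD control 3 (others 1.43 to 3.53). Cyp1a1 was 0.0739 CPM in HFD control 4 from a single count, with the others at 0. Cyp4b1 was 71.1 CPM in chow CL 2, against 24.4 to 37.9 CPM in the others.

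Chow saline 5 also stood apart for Cyp4f13 with 52 CPM (others 36.5 to 40). HFD saline 4, the library with the fewest counts, stood apart for Cyp4f13 with 42.1 CPM and Cyp4f17 with 17 CPM. Chow C-3BO 3 was high for Cyp1b1 with 15.6 CPM and low for Cyp4f17 with 8.12 CPM. The other values set apart were Cyp1b1 at 12.8 CPM in chow control 2, Cyp2s1 at 1.08 CPM in chow CL 1 and Cyp2r1 at 1.24 CPM in HFD control 3 on the high side. On the low side they were Cyp2d22 at 88.8 CPM in HFD CL 2, Cyp51 at 17.4 CPM in HFD saline 1, Cyp4f16 at 6.36 CPM in HFD C-3BO 3, Cyp4f18 at 0.463 CPM in chow C-3BO 2 and Cyp39a1 at 2.53 CPM in chow control 5.

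The difference between the C-3BO and CL effects on HFD passed the test for Cyp2d26 (6.45 on the log2 scale), Cyp4a10 (6.29) and Cyp4a14 (5.57). These genes are high in the libraries with Alb, which make up both injected HFD groups but only replicates 4 and 5 of HFD C-3BO, and 0 of the 3 passed by edgeR without those replicates. Cyp2d26 had no count in HFD controls, so that 6.45 is a fitted value over an empty group.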

How the results depend on the processing

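For single P450 genes, DESeq2 kept the direction and side of the threshold of 54 called values and lost 2, RLE factors kept 55 and lost 1, no filter kept 55 and lost 1, library totals kept 51 and lost 5, and leaving out single libraries kept 518 and lost 72. Replicates 4 and 5 of HFD C-3BO weighed most: without them 9 values were kept, 22 lost their call and 4 changed sign, namely Cyp2f2 (-0.039) and Cyp3a11 (-0.20) in C-3BO against control, and Cyp4a14 (-0.016) and Cyp4a10 (-1.14) in HFD against chow, in which the high libraries are the ones removed. Genes past the adjusted p, 16 in both comparisons, became 4 for C-3BO on HFD and 8 for HFD in C-3BO mice, induced or reduced genes went from 13 to 4 and from 12 to 3, of which 3 and 1 were called in both, and the difference from CL went from 3 to 0. With no filter the called genes were 26 for C-3BO on HFD (29 past the adjusted p), 20 for HFD in C-3BO mice and 1 for the C-3BO effect on HFD minus chow. With at least 10 counts in every library, which removes the low genes, they were 0 for C-3BO on chow (3 past the adjusted p), 1 on HFD (4), 3 for HFD in control mice, 0 for HFD in C-3BO mice (3) and 0 for the difference from CL. With the libraries of a comparison alone they were 0 for C-3BO on chow, 2 on HFD (4) and 2 for HFD in C-3BO mice (5), and 5 genes passed the adjusted p for CL on HFD. Library totals alone left 0 called for CL on HFD, shifted the median of all genes by -0.15, -0.15, -0.23 and -0.19 for CL on chow and HFD and C-3BO on chow and HFD and by 0.15 and 0.21 for HFD in control and C-3BO mice, and moved the share of higher genes among those passed from 59.9 to 26.6%, 54.0 to 27.9%, 49.8 to 20.2%, 55.4 to 30.1%, 46.8 to 71.3% and 52.6 to 81.7%; the P450 splits became 2 higher and 1 lower, 1 and 2, 3 and 3, 14 and 2, 4 and 4, and 18 and 2. DESeq2 called 2 genes in each of the HFD minus chow effects. Where no value above shows it, the cause was not tested.

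Leaving out 1 library gave, for called genes and those past the adjusted p, 0 to 0 and 3 to 4 for CL on chow, 0 to 2 and 2 to 5 for CL on HFD, 2 to 4 and 4 to 8 for C-3BO on chow, 13 to 19 and 14 to 22 for C-3BO on HFD, 4 to 6 and 6 to 11 for HFD in control mice, and 8 to 17 and 12 to 21 for HFD in C-3BO mice. The differences of effects gave 0 to 1, 0 to 1 and 2 to 6. The classes were 23 to 23 brown fat, 17 to 18 low, 17 to 20 only with Alb and 33 to 35 not counted. With 10 counts as present, low genes were 6 and genes not counted 50. A cut of 0.5 CPM added Cyp4f39, Cyp2t4, Cyp4a14 and Cyp7b1 to brown fat, and 2 CPM removed Cyp4f18, Cyp2s1, Cyp2r1 and Cyp46a1. The labels do not say whether samples with the same replicate number belong together. Correlations of their deviations were -0.2 to 0.444, and in no comparison did all 5 pairs pass 0.1. In C-3BO against control on chow 3 of 5 passed it, and 0 to 2 of 5 in the other comparisons. On each diet 3 of 5 C-3BO libraries correlated best with the control of their own number, against 0 or 1 of 5 elsewhere. A pairing cannot be told from these values. A replicate block kept 55 calls and lost 1 (Cyp4a10 in HFD against chow in C-3BO mice, 2.01). Depth limits genes near 3 counts, which is 3.01 CPM in HFD saline replicate 4.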
